A study of Mus musculus with 2 samples.

Results

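Vegfa and 9 genes of the embryonic endothelium (Kdr, Flt1, Tek, Tie1, Eng, Pecam1, Etv2, Erg and Ets1) were read in mouse embryos with both copies of chromosome 18 from the mother and in embryos with both copies from the father. Members were all probe sets that the platform annotation pairs with exactly 1 gene symbol where that symbol is one of these 10, which gave 19 of 34945 such probe sets and 10 of 18193 genes. None of the 10 genes lies on chromosome 18: by RefSeq they are on chromosomes 17 (Vegfa), 5 (Kdr and Flt1), 4 (Tek and Tie1), 2 (Eng), 11 (Pecam1), 7 (Etv2), 16 (Erg) and 9 (Ets1).

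The study compared whole embryos at 8.5 days post coitum (dpc), matched in age and tissue, to find transcripts whose level depends on which parent gave chromosome 18. One Affymetrix array (called 430 in the titles) carried RNA of embryos with maternal uniparental disomy of the whole chromosome (matUPD18), and 1 array carried RNA of embryos with the paternal disomy (patUPD18). The strain background, the number of embryos behind each RNA and any normal embryos are not given in the labels or were not analysed here. Total RNA was amplified before labelling, per the labels' protocols. With 1 array per group the spread between embryos is unknown, so there are no tests, and every difference below is one between 2 arrays. In RNA from whole embryos, fewer endothelial cells and less RNA of a gene per cell cannot be told apart.

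Blood vessels form in the embryo when mesodermal precursors become endothelial cells. Etv2, an ETS transcription factor, starts this programme and switches on Kdr, and the related factors Erg and Ets1 act in the endothelial cells that result. Vegfa is the secreted ligand that binds the receptor kinases Kdr (VEGFR2, the main signalling receptor) and Flt1 (VEGFR1, which binds the ligand tightly and limits its action), while Tek (Tie2) and Tie1 form the angiopoietin receptor system, Eng (endoglin) is a co-receptor for BMP and TGF-beta ligands, and Pecam1 is an adhesion molecule of endothelial junctions.

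ETS factors bind DNA around a GGAA core, and the regions before the starts of these genes are shown because the ligand, its receptors and the factor that starts the programme are the members whose signals are set side by side below. RefSeq (GRCm38.p6) gave starts for 8 of the 10 genes, and Ets1 and Pecam1 had none in the table. The lines below give the 250 bases before the annotated start (for Vegfa the upstream one of 2 starts), written 5′ to 3′ on the gene's strand, with each GGAA, or TTCC where the core is on the other strand, in capitals.
Vegfa, chr17:46032378-46032627, strand -: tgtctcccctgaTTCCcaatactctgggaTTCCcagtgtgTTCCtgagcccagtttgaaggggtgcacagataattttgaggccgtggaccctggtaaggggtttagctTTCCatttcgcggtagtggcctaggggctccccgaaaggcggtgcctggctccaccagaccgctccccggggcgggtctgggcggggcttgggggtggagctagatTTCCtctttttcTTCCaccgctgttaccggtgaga
Kdr, chr5:75978456-75978705, strand -: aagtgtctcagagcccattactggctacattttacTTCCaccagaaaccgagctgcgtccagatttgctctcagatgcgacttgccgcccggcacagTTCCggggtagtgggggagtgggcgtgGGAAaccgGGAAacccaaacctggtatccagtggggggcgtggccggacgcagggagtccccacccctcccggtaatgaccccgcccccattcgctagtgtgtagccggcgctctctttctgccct
Flt1, chr5:147726012-147726261, strand -: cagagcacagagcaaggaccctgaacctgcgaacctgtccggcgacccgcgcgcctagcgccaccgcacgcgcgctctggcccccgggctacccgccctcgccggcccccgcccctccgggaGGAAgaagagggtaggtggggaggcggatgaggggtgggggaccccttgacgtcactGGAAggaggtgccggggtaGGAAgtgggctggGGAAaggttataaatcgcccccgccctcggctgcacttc
Etv2, chr7:30635853-30636102, strand -: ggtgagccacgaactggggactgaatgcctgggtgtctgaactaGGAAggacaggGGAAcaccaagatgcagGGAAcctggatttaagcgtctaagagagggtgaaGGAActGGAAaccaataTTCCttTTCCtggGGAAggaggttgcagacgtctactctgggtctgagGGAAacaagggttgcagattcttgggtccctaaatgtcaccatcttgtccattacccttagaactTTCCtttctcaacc
The core occurred 6 times before Vegfa, 4 times before Kdr, 4 times before Flt1 and 10 times before Etv2. All 6 before Vegfa were on the opposite strand and all 4 before Flt1 were on the gene's own strand. Such a short core is common, since 93.5% of 32841 mouse windows of this length held it on either strand, with a median of 3 matches. The longer string AGGAAG, which contains the core, occurred 2 times before Flt1 and 1 time before Etv2, and was in 29.5% of all windows on either strand. It was not found in the windows of Vegfa and Kdr. The GC-rich string GGGCGG occurred 2 times before Vegfa, 2 times before Kdr and 3 times before Flt1 and not before Etv2, against 32.7% of all windows with at least 1 match. ACGTG, 1 form of the core that hypoxia-inducible factors bind, was absent from these 4 windows and present in 16.6% of all windows. It occurred 1 time before the other start of Vegfa. GCGTG, another form of this core, was not counted, and the windows of Kdr and Flt1 hold it on either strand. These matches describe letters and were not tested as sites.

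Signals are MAS5 intensities, scaled by the submitters to the same mean on each array. A probe set was called measurable where its signal reached the 60th percentile of its array (190.1 in matUPD18, 184.9 in patUPD18) on at least 1 array. Signals under the 40th percentile (84.2 in matUPD18, 82.5 in patUPD18) were treated as at the floor, and probe sets under it on both arrays have no order. Of the 19 member probe sets, 10 were measurable, and they covered 8 of the 10 genes. The pair without a measurable probe set was Tie1 and Pecam1. Log2 ratios are matUPD18 over patUPD18. Since 1 array above the limit was enough, the measurable probe sets are not a neutral sample of the 19.

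**Figure D1:**
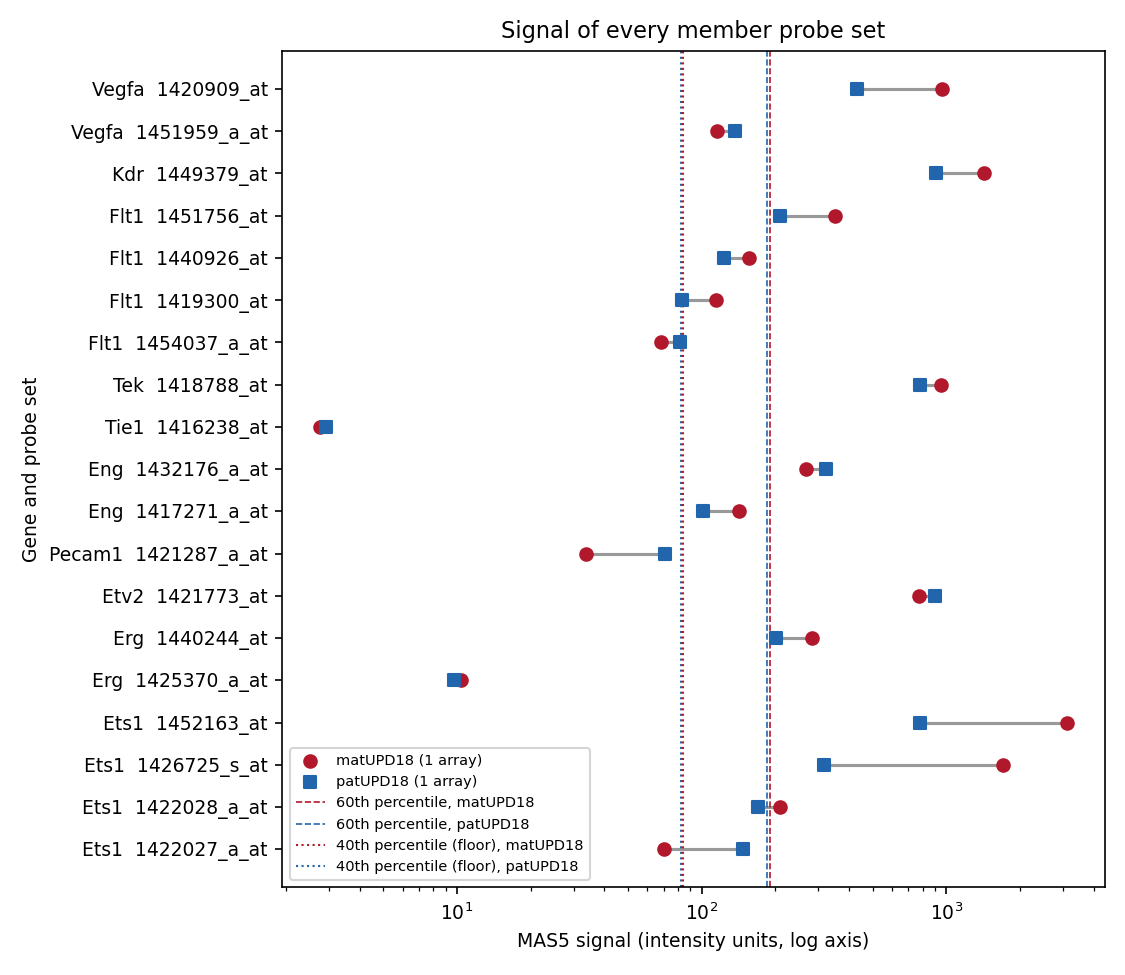
MAS5 signal (log axis) of each of the 19 member probe sets, with matUPD18 as circles and patUPD18 as squares, 1 array each. Dashed lines mark the 60th and dotted lines the 40th percentile of each array. The widest gaps above the dashed lines belong to 2 Ets1 probe sets (3124 and 1710 in matUPD18, against 782.9 and 316.9 in patUPD18), followed by a Vegfa probe set (959.5 in matUPD18 against 430.0 in patUPD18).

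Before the members, the makeup of the RNAs needs stating. By their brightest probe sets, all 20 measurable genes of a yolk sac visceral endoderm list read higher in matUPD18, 13 of them by at least 2-fold. Their summed signals were 41938 in matUPD18 and 9445 in patUPD18. Without probe sets whose names end in _s_at, _x_at or _a_at, 14 of 15 measurable genes read higher in matUPD18, 8 by at least 2-fold. Ttr, Gata6 and Spink1 of this list lie on chromosome 18. All 11 measurable primitive red cell genes read lower in matUPD18, 6 by at least 2-fold, with summed signals of 46753 in matUPD18 and 72030 in patUPD18. No gene of these lists was under the floor on both arrays. Only 9 of the 20 yolk sac genes reached the measurable limit on both arrays, the others in matUPD18 alone. Of the 11 red cell genes, 9 reached it on both, the others in patUPD18 alone. Both counts thus lean in part on the array where the genes are high. Over all measurable genes, 46.1% read higher in matUPD18, and 4.48% were at least 2-fold apart in either direction. After scaling to the hybridisation controls described below, 9 of the 11 red cell genes read lower in matUPD18, 1 of them by at least 2-fold. Their median log2 ratio of -1.21 became -0.71. The yolk sac and its blood islands are also sites of endothelium and of Vegfa, so these shifts stand beside every member below. Their part in the member ratios was not tested.

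Vegfa, the ligand, was 2.23-fold higher in matUPD18 by the probe set 1420909_at. That probe set gave 959.5 in matUPD18 and 430.0 in patUPD18, a log2 ratio of 1.16. Both signals lay well inside the upper part of their arrays, at percentile 85.4 in matUPD18 and 75.7 in patUPD18. The second Vegfa probe set, 1451959_a_at, gave 115.3 in matUPD18 and 136.6 in patUPD18, below the measurable limit on both arrays and in the opposite direction, with a log2 ratio of -0.24. Of the 1670 measurable probe sets with a mean signal like that of 1420909_at (the same band when all measurable probe sets are cut into 10 bands of equal size by signal), 45 (2.69%) were at least 2-fold higher in matUPD18, and 27 had a ratio in that direction at least as large. Thus the higher Vegfa signal rests on 1 of its 2 probe sets.

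The VEGF receptors both read higher in matUPD18, by less than 2-fold. Kdr, represented by the single probe set 1449379_at, read 1426 in matUPD18 and 910.0 in patUPD18, which is 1.57-fold and a log2 ratio of 0.65. Of the 1670 probe sets of like signal, 127 had a ratio in this direction at least as large. Flt1 had 4 probe sets, of which only 1451756_at was measurable, with 349.7 in matUPD18 and 209.0 in patUPD18, a ratio of 1.67-fold and a log2 ratio of 0.74. Here 119 of 1669 probe sets of like signal had a ratio in the same direction at least as large. Among the measurable member probe sets, this is the largest ratio that stayed under 2-fold, and the 2.23-fold of Vegfa is the smallest that passed it.

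Of the 3 dimmer Flt1 probe sets, all below the measurable limit, the brighter pair also read higher in matUPD18. The probe set 1440926_at gave 155.6 in matUPD18 and 123.8 in patUPD18, and 1419300_at gave 114.9 in matUPD18 and 83.3 in patUPD18. The fourth, 1454037_a_at, gave 67.9 in matUPD18 and 81.7 in patUPD18, under the floor on both arrays. Flt1 also makes a shortened, secreted receptor, but the annotation used here does not tell which transcripts the 4 probe sets match.

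The angiopoietin receptors were read unevenly. Tek, by 1418788_at, read 952.5 in matUPD18 and 778.4 in patUPD18, a log2 ratio of 0.29 that 411 of the 1670 probe sets of like signal matched or exceeded in the same direction. Tie1 had a single probe set, 1416238_at, whose signals were 2.75 (matUPD18) and 2.92 (patUPD18). These lay at percentile 1.49 in matUPD18 and 1.61 in patUPD18, so this probe set gave no usable reading of Tie1 in either RNA.

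Eng and Pecam1, the surface molecules, gave no difference past 2-fold among readings above the floor. The brighter Eng probe set, 1432176_a_at, measured 267.3 in matUPD18 and 323.0 in patUPD18, a log2 ratio of -0.27. The dimmer one, 1417271_a_at, was below the limit and pointed the other way, with 141.9 in matUPD18 and 101.6 in patUPD18 and a log2 ratio of 0.48. For Pecam1 the single probe set 1421287_a_at gave 33.6 in matUPD18 and 70.6 in patUPD18, at percentile 22.3 in matUPD18 and 36.3 in patUPD18 and under the floor on both arrays, so its values have no order.

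Etv2, which starts the endothelial programme, read nearly alike in the 2 RNAs. Its probe set 1421773_at had 770.1 in matUPD18 and 899.4 in patUPD18, at percentile 82.98 in matUPD18 and 85.0 in patUPD18, a ratio of 1.17-fold and a log2 ratio of -0.22. Of the probe sets of like signal, 451 of 1670 were at least as far apart in that direction. Erg, by 1440244_at, read 282.8 in matUPD18 and 201.9 in patUPD18, a log2 ratio of 0.49 that 268 of 1670 probe sets of like signal reached in that direction. Its other probe set, 1425370_a_at, gave 10.4 in matUPD18 and 9.68 in patUPD18, under the floor on both arrays.

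Ets1 differed most among the members. The probe set 1452163_at gave 3124 in matUPD18 and 782.9 in patUPD18, which is 3.99-fold and a log2 ratio of 1.997. Only 2 of the 1669 probe sets of like signal, itself included, were as far apart in this direction, and 1.98% passed 2-fold. The probe set 1426725_s_at gave 1710 in matUPD18 and 316.9 in patUPD18, which is 5.40-fold and a log2 ratio of 2.43. No other probe set among the 1670 of its signal band was as far apart in either direction. The annotation gives both probe sets the same source sequence, so they are readings of 1 target and not independent of each other.

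The remaining pair of Ets1 probe sets, which share another source sequence, did not show this difference. The probe set 1422028_a_at gave 210.0 in matUPD18 and 169.4 in patUPD18, a log2 ratio of 0.31 in the dimmest of the 10 bands, where 22.9% of probe sets passed 2-fold in either direction. The probe set 1422027_a_at, below the limit, gave 70.4 in matUPD18 and 148.3 in patUPD18, with a log2 ratio of -0.82 after the matUPD18 signal was raised to the floor. The differences past 2-fold thus belong to the bright probe sets of 1 source sequence, while the dimmer pair of the other source sequence gave ratios of opposite sign. Where along the gene each probe set lies was not known here. The control probe sets for Gapdh had a 3′ over 5′ signal of 33.95 in matUPD18 and 36.4 in patUPD18, and the part of this 3′ excess in the Ets1 readings was not tested.

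**Figure D2:**
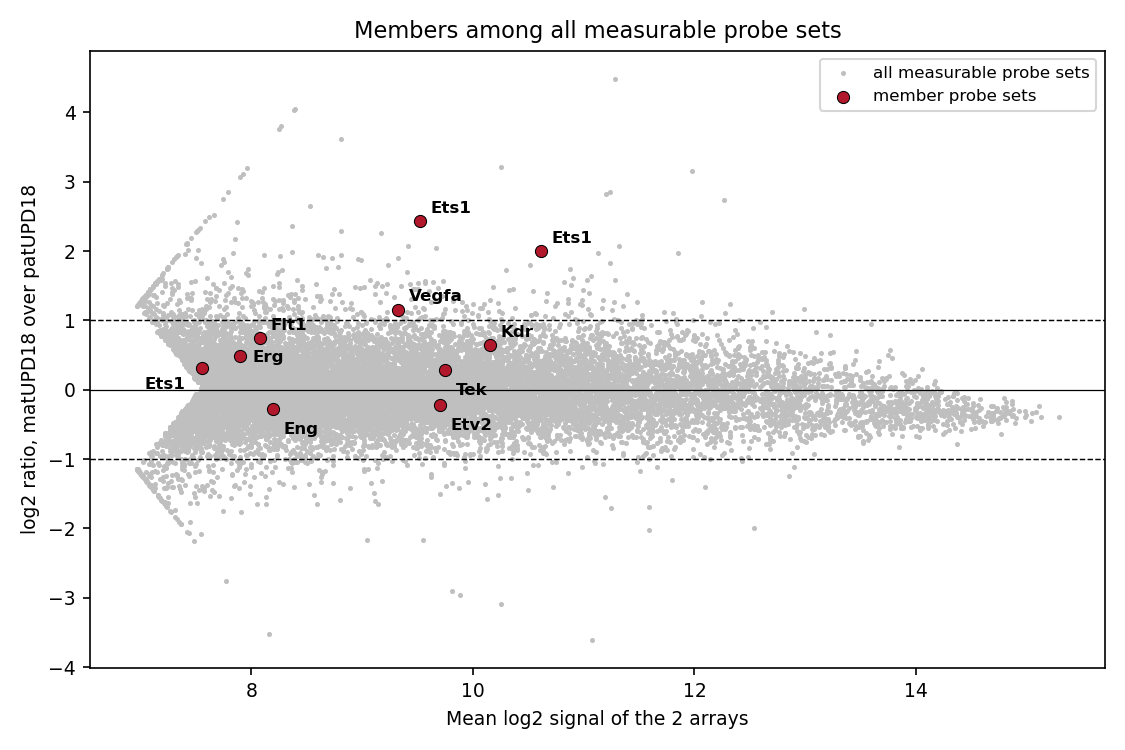
Log2 ratio (matUPD18 over patUPD18) against the mean log2 signal of both arrays for all 16696 measurable probe sets (grey) and the 10 measurable member probe sets (red, labelled by gene). Dashed lines mark 2-fold. Both bright Ets1 points (1.997 and 2.43) and Vegfa (1.16) lie above the upper line, and no member lies below the lower one.

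Over the members, 3 of the 10 measurable probe sets were at least 2-fold apart, 2 of Ets1 and 1 of Vegfa, and all 3 were higher in matUPD18. Across all 16696 measurable probe sets, 5.22% were at least 2-fold apart, 3.27% higher in matUPD18 and 1.95% higher in patUPD18. The median log2 ratio of the 10 was 0.57, against -0.02 for all measurable probe sets, and it was 0.49 for the 7 that are not of Ets1. In all, 8 of the 10 read higher in matUPD18, against 48.3% of all measurable probe sets, the exceptions being Eng and Etv2, which change direction under 1 scaling described next. The 10 include 3 probe sets of Ets1, of which 1422028_a_at reached the measurable limit in matUPD18 only, the array where it read higher. By the brightest probe set of each gene, 6 of 8 measurable member genes read higher in matUPD18, and 2 were at least 2-fold higher. Over all measurable genes these shares were 46.1% and 2.7%. The log2 ratios of probe sets of the same gene differed with a pooled standard deviation of 0.44 on these arrays (10206 probe sets of 4003 genes), which covers disagreement within an array pair and no spread between embryos. The ratios of Kdr (0.65), Flt1 (0.74) and Erg (0.49) lay less than 2 such deviations from 0, and that of Tek (0.29) less than 1. This compares sizes only, since the deviation is taken around gene means and is no error of a ratio around 0. It also pools all signal bands, and ratios in the dimmest band spread more widely (quartiles -0.58 and 0.62).

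The direction of small ratios depends on how the arrays are brought to a common level. The 9 hybridisation control probe sets, for bacterial and phage sequences, can serve as an external standard of the hybridisation step and not of RNA amount per embryo. All 9 were lower in matUPD18 under the deposited scaling, with a median log2 ratio of -0.50. Shifting all ratios so that this median is 0 moved the median of all measurable probe sets from -0.02 to 0.48. Under that scaling Etv2 (0.28) and Eng (0.23) also read higher in matUPD18, and Kdr (1.15) and Flt1 (1.24) passed 2-fold. Relative to the other probe sets nothing changes, since all ratios shift together. Under median centring, quantile normalization and loess, each measurable member probe set kept the direction it had under the deposited scaling.

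**Figure D3:**
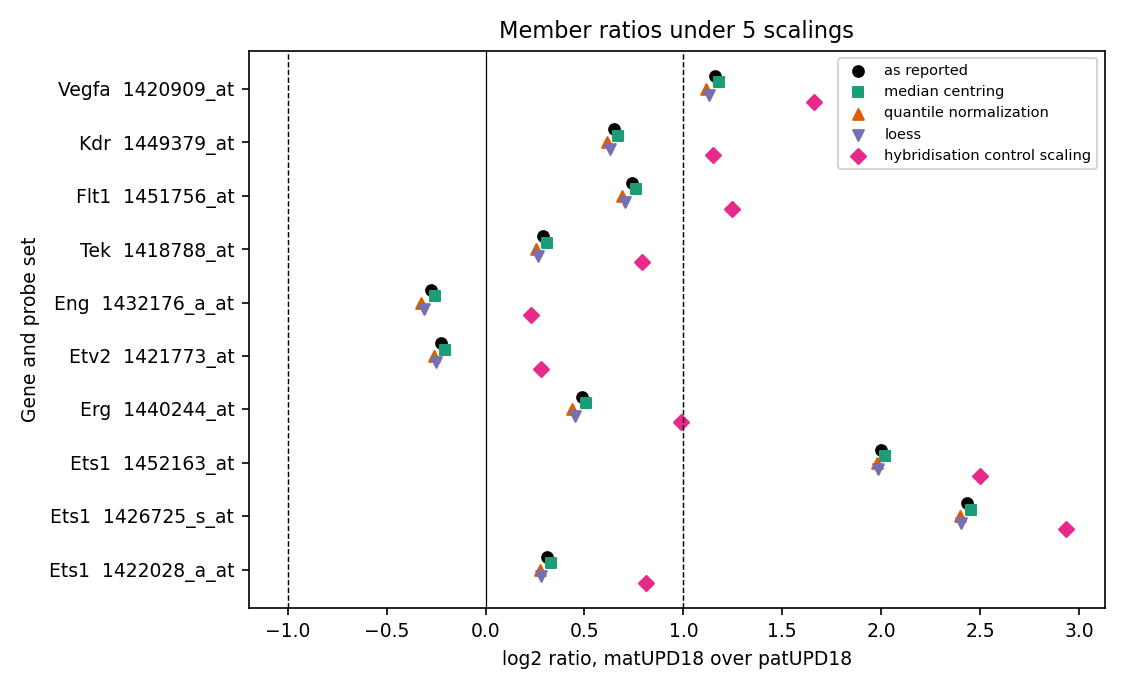
Log2 ratio (matUPD18 over patUPD18) of each measurable member probe set under the deposited scaling and 4 others. Median centring, quantile normalization and loess stay close to the deposited values, and scaling to the hybridisation controls moves each point up by 0.50, which turns the sign of Eng (-0.27 to 0.23) and Etv2 (-0.22 to 0.28).

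Other genes of the same pathways were read from 8 lists, each gene by its brightest probe set. Of 140 genes on the array, 112 were measurable, and 2 of these were at least 2-fold apart, both higher in matUPD18, against 4.48% of all 10484 measurable genes. The median log2 ratio over these 112 genes was -0.04, the same as the -0.04 over all measurable genes. Both genes past 2-fold were ETS factors. The 4.48% also stands beside each list below, and in lists this short a count of 0 lies near it.

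Among the other ETS factors, 9 of 10 measurable genes read higher in matUPD18, against 46.1% of all measurable genes, with a median log2 ratio of 0.45. The count was also 9 of 10 under each of the 4 other scalings, but it was 7 of 9 without probe sets whose names end in _s_at, _x_at or _a_at and 10 of 13 with the measurable limit at the 50th percentile. Of the 10 genes, 8 reached the measurable limit on both arrays. The rest, Fli1 among them, reached it in matUPD18 only, the array where they read higher. The second measurable probe sets of Elk3 and Elk4 read lower in matUPD18 under the deposited scaling, with log2 ratios of -0.25 and -0.06. Elf2, an ETS factor not restricted to endothelium, was 2.97-fold higher in matUPD18 going by the brightest of its probe sets (1310 in matUPD18, 440.3 in patUPD18), but a second measurable one gave 570.4 in matUPD18 and 559.1 in patUPD18. Fli1, the closest relative of Erg and also an endothelial and blood factor, was 2.08-fold higher, with 311.8 in matUPD18 and 150.2 in patUPD18. Etv3 was 1.81-fold higher in matUPD18, and both of its further measurable probe sets pointed the same way. Against the rest, Ets2, the closest relative of Ets1, read 753.1 in matUPD18 and 1298 in patUPD18 and was 1.72-fold lower in matUPD18. Its dimmer probe set differed more in the same direction, with 173.6 in matUPD18 and 373.9 in patUPD18.

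In the VEGF family, none of the 5 measurable genes besides the members was 2-fold apart by its brightest probe set. Vegfc, the ligand of lymphatic vessel growth, read 1196 in matUPD18 and 802.0 in patUPD18, and 2 further measurable probe sets also read higher in matUPD18. The co-receptor gene Nrp1 read 2458 in matUPD18 and 1542 in patUPD18, with log2 ratios from 0.01 to 0.48 by its 3 other measurable probe sets. Its relative Nrp2 was discordant: the brightest gave 769.1 in matUPD18 and 1039 in patUPD18, while the others read 871.3 and 368.2 in matUPD18, against 566.9 and 91.1 in patUPD18. Vegfd read 216.9 in matUPD18 and 269.5 in patUPD18, and Flt4, the receptor of Vegfc, read 404.1 in matUPD18 and 415.7 in patUPD18. A dimmer Flt4 probe set gave 119.3 in matUPD18 and 219.8 in patUPD18. Vegfb and Pgf were not measurable.

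Of the ligands and partners of Tek and Tie1, 4 genes were measurable and none was 2-fold apart. Angpt1, the activating ligand of Tek, read 314.3 in matUPD18 and 170.0 in patUPD18, which is 1.85-fold. Angpt2 read 236.1 in matUPD18 and 197.1 in patUPD18. Ptprb, the endothelial phosphatase that acts on Tek, read 188.7 in matUPD18 and 218.9 in patUPD18, with its other measurable probe set in the opposite direction, and the adaptor gene Dok2 read 153.1 in matUPD18 and 214.8 in patUPD18.

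Endothelial junction and surface genes, which are carried by the cells that express most of the members, were also read. Of 25 measurable genes none was 2-fold apart, 18 read lower in matUPD18 and 7 higher, and the median log2 ratio was -0.23, though 22 of 25 read higher in matUPD18 after scaling to the hybridisation controls. Cdh5 (VE-cadherin, the defining endothelial junction gene) read 321.5 in matUPD18 and 279.7 in patUPD18. Lowest in matUPD18 relative to patUPD18 were Robo4, an endothelial guidance receptor (175.8 in matUPD18, 289.2 in patUPD18), and Emcn, a sialomucin (126.1 in matUPD18, 205.4 in patUPD18). In the other direction Thbd, the thrombin receptor, read 238.0 in matUPD18 and 124.6 in patUPD18, and Vcam1 read 470.9 in matUPD18 and 383.5 in patUPD18. The 14 endothelial marker genes, most of them also in these lists, summed to 4981 in matUPD18 and 5377 in patUPD18, and 9 of them reached the measurable limit on both arrays. Emcn, Robo4 and Clec14a reached it in patUPD18 only, and Sox18 and Fli1 in matUPD18 only.

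The other vascular transcription factors were close to each other in the 2 RNAs, with 16 measurable genes, none 2-fold apart and a median log2 ratio of 0.13. Tal1, of blood and endothelial precursors, read 285.6 in matUPD18 and 475.3 in patUPD18, and Foxo1 read 522.0 in matUPD18 and 745.7 in patUPD18. By its dimmer probe sets Foxo1 read 564.3 and 229.6 in matUPD18, against 478.9 and 323.7 in patUPD18. Hey2, a Notch target of arteries, read 208.0 in matUPD18 and 118.7 in patUPD18, and Sox18 read 196.1 in matUPD18 and 118.3 in patUPD18. In the Notch list all 10 measurable genes were within 2-fold, and 3 that read higher in matUPD18 came near it. The ligand gene Dll1 read 939.6 in matUPD18 and 471.1 in patUPD18 (1.99-fold), and the ligand gene Jag1 read 617.0 in matUPD18 and 311.0 in patUPD18 (1.98-fold). Hes1, a target gene, read 401.1 in matUPD18 and 207.5 in patUPD18 (1.93-fold). Jag2 went the other way, with 224.5 in matUPD18 and 403.9 in patUPD18 (1.80-fold), as did the feedback gene Nrarp with 1116 in matUPD18 and 1910 in patUPD18.

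The receptors and Smads that act with Eng showed no 2-fold difference in 16 measurable genes, with a median log2 ratio of 0.06. Tgfb2 (971.2 in matUPD18, 575.6 in patUPD18) and the activin receptor gene Acvr2a (749.4 in matUPD18, 526.0 in patUPD18) were furthest in one direction. In the other, Smad4, the shared Smad, read 6068 in matUPD18 and 8612 in patUPD18, and Tgfbr2 read 491.0 in matUPD18 and 668.4 in patUPD18. Smad4 is itself on chromosome 18, and 2 further Smad4 probe sets were measurable, also with lower signals in matUPD18 under the deposited scaling.

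Vegfa is a classic target of hypoxia-inducible factors, and other hypoxia genes, regulators as well as targets, were read. None of 26 measurable genes was 2-fold apart, against 4.48% of all measurable genes. Of the 26, 10 read higher and 16 lower in matUPD18, with a median log2 ratio of -0.09. After scaling to the hybridisation controls 25 read higher in matUPD18, with a median of 0.42. The factor genes Epas1 (627.3 in matUPD18, 375.5 in patUPD18) and Hif1a (6010 in matUPD18, 4153 in patUPD18) were the highest in matUPD18. Of the targets, Ddit4 read 1234 in matUPD18 and 1976 in patUPD18 and Ankrd37 read 274.4 in matUPD18 and 383.1 in patUPD18. The difference between the Vegfa ratio and this list was not tested.

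**Figure D4:**
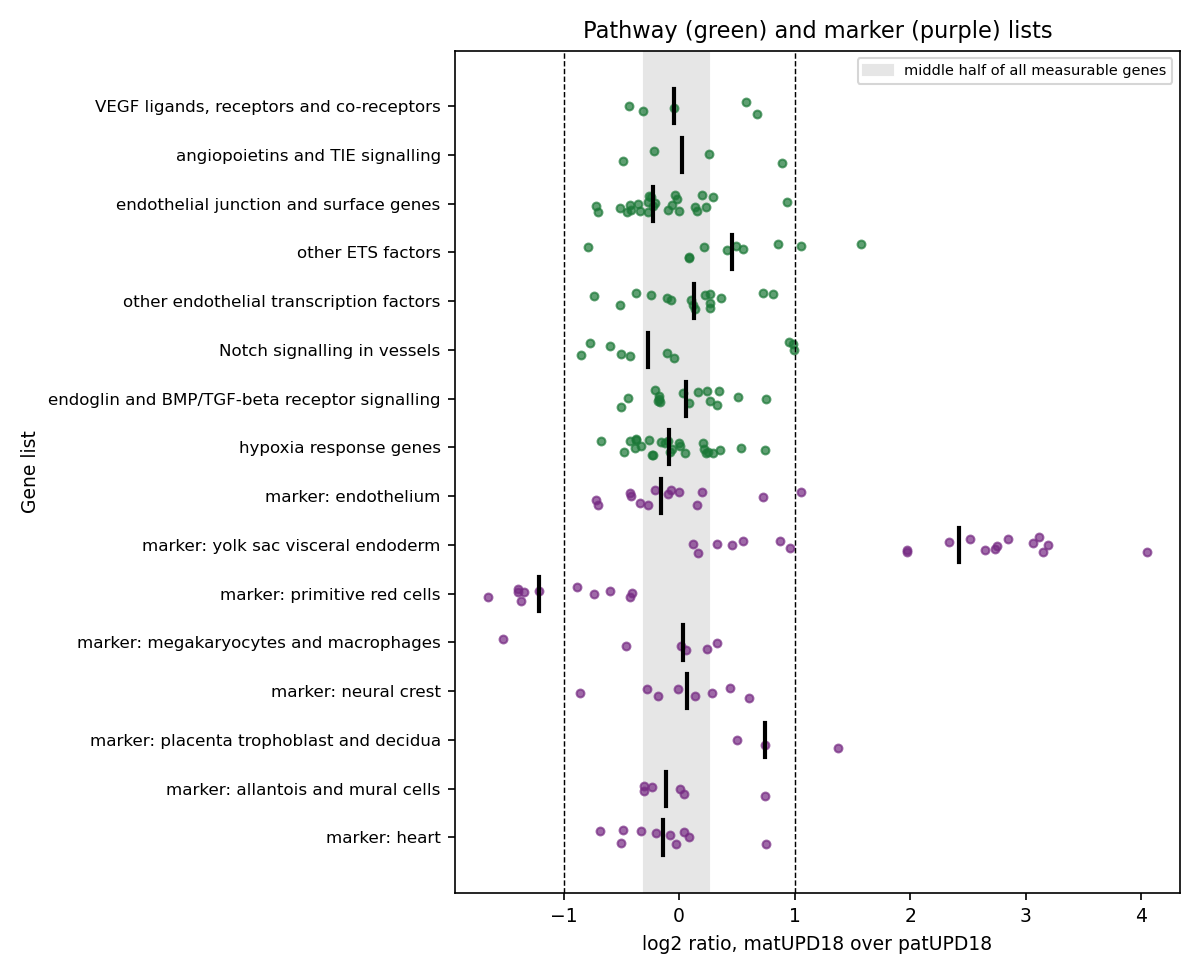
Log2 ratios (matUPD18 over patUPD18) of the measurable genes of 8 pathway lists (green) and 8 marker lists (purple), each point 1 gene by its brightest probe set, with black bars at the medians and the interquartile range of all measurable genes shaded. The medians of 7 pathway lists lie inside the shaded range (from -0.27 in the Notch list to 0.13), and that of the other ETS factors (0.45) lies above it. The medians of the yolk sac endoderm list (2.43) and the trophoblast and decidua list (0.74) also lie above it, and that of the red cell list (-1.21) lies below. Medians below 0 other than that of the red cell list turn positive after scaling to the hybridisation controls.

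Other cell types that express members were read from their own markers. Ets1 is also a gene of the neural crest: of 8 measurable neural crest markers none was 2-fold apart, 4 read higher and 4 lower in matUPD18 (7 higher after scaling to the hybridisation controls), and the median log2 ratio was 0.07. Pax3 was furthest up, with 1588 in matUPD18 and 1042 in patUPD18, followed by Snai2 with 4341 in matUPD18 and 3200 in patUPD18. By its dimmer probe sets Pax3 read 1213 and 210.8 in matUPD18, against 908.8 and 255.9 in patUPD18. Sox9 was furthest down, with 153.6 in matUPD18 and 277.7 in patUPD18. Sox10, of migrating crest, read 361.2 in matUPD18 and 437.1 in patUPD18. Flt1 and Vegfa are also expressed in trophoblast and decidua, where only 3 of 9 markers on the array were measurable, all higher in matUPD18, and 4 (Tpbpa, Ascl2, Ctsj and Ctsq) were under the floor on both arrays. Dcn read 222.2 in matUPD18 and 85.8 in patUPD18, Plac1 404.3 in matUPD18 and 241.5 in patUPD18, and Hand1 286.7 in matUPD18 and 202.5 in patUPD18. Of these 3, Dcn reached the measurable limit in matUPD18 only, so this list reads few markers. Kdr and Tek are also expressed in blood precursors. Of 6 measurable megakaryocyte and macrophage markers, Pf4 was 2.88-fold lower in matUPD18 (123.6 in matUPD18, 356.2 in patUPD18). The other 5 were within 2-fold by their brightest probe sets. Csf1r, a macrophage gene on chromosome 18, read 394.6 in matUPD18 and 378.4 in patUPD18 by its brightest probe set. Its dimmer probe sets read 96.0 and 217.4 in matUPD18, against 253.7 and 225.4 in patUPD18. Gp1bb, a platelet receptor subunit, read 264.9 in matUPD18 and 364.6 in patUPD18. The macrophage genes Fcgr1 and Adgre1 read 233.1 and 311.1 in matUPD18, against 185.8 and 263.3 in patUPD18. Allantois and mural cell markers (6 measurable) and heart markers (10 measurable) held no gene 2-fold apart, with medians of -0.12 and -0.14. The part of these cell types in the member ratios was not tested.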

How the data were processed

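Each of the 2 arrays gave 1 MAS5 signal intensity for each of 45101 probe sets. The deposited intensities were made with MAS5 and GCOS, per the submitters' processing notes, with no version stated there. The 2% trimmed mean of the deposited intensity was 500.003 in matUPD18 and 500.004 in patUPD18, so a shift shared by most transcripts cannot be seen. Detection calls were not used. Symbols came from the platform annotation, updated through Entrez identifiers for 34741 of 34945 probe sets with 1 symbol. No test between groups was possible with 1 array each, and called means at least 2-fold apart with the lower signal raised to the floor. The members and gene lists were chosen with earlier results of these data known. Named list genes are the 2 furthest apart in each direction among the measurable genes of a list and any past 2-fold by the brightest probe set. Those named besides (Cdh5, Clec14a, Flt4, Hes1, Etv3, Elk3, Elk4, Hand1, Csf1r, the 4 trophoblast markers under the floor and, where a gene's probe sets disagree, its dimmer ones) were chosen after their values were seen. The yolk sac, red cell, heart and allantois lists are given by counts, and the yolk sac genes on chromosome 18 are named for their location. The scripts were tested on simulated data. The tools were numpy 2.4.6 and pandas 2.3.3 under Python 3.11.15, with statsmodels 0.14.6 for loess (fraction 0.3) and matplotlib 3.10.9 for figures.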

Additional observations from a re-analysis of the deposited data

How the results depend on the processing

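With 1 array per group, the number of arrays limits the precision of every value, and dim probe sets are limited by signal over background. The count of 3 member probe sets at least 2-fold apart, all higher in matUPD18, became 5 after scaling to the hybridisation controls and 5 at a 1.5-fold threshold. The median member log2 ratio of 0.57 became 1.07 with the hybridisation control scaling. The number of members higher in matUPD18 was 5 with the measurable limit at the 75th percentile, which leaves fewer probe sets. Of those left, only that of Etv2 read lower in matUPD18. The 2 pathway genes at least 2-fold apart became 17 with the hybridisation control scaling, 4 with median centring, 21 at 1.5-fold and 0 at 3-fold. They became 1 with the floor at the 60th percentile, 1 with the limit at the 75th percentile and 1 without probe sets whose names end in _s_at, _x_at or _a_at. Of all measurable probe sets, 5.22% were at least 2-fold apart under the deposited scaling, 15.0% with the hybridisation control scaling and 5.38% with median centring. This share was 2.64% with that floor, 3.65% with that limit and 5.55% without those probe sets. The shares past 1.5-fold and 3-fold were not counted over all probe sets. Among all measurable probe sets at least 2-fold apart, 871 under the deposited scaling and 2507 with the hybridisation control scaling, the share higher in matUPD18 was 62.7% and 97.5%. No value past 2-fold changed sign under any alternative run. No paired analysis was possible because each group has 1 array and no test was made.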

Other observations

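Several vascular genes outside the members had probe sets that disagreed, and these were chosen after their values were seen. Mef2c, a factor of heart and endothelium, read 1607 in matUPD18 and 1335 in patUPD18 by its brightest probe set. Its dimmer probe sets read 363.3 and 447.2 in matUPD18, against 152.8 and 56.5 in patUPD18. Podxl, a sialomucin of endothelium and epithelia, read 1443 in matUPD18 and 1507 in patUPD18 by its brightest probe set, and 62.1 in matUPD18 and 261.2 in patUPD18 by a dimmer one. Mmrn2, an endothelial matrix gene, read 343.1 in matUPD18 and 489.6 in patUPD18 by its brightest probe set, and 205.7 in matUPD18 and 544.9 in patUPD18 by another.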
